A study of Oncorhynchus mykiss with 28 samples.

Results

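Eggs that gave few eyed embryos were compared with eggs whose embryos reached the eyed stage and were lost or malformed afterwards. Survival was expressed relative to the eggs at the start, and no fertilization rate was used. Eggs that were never fertilized can therefore not be told apart from embryos that died before the eyed stage, and early failure covers both. Females were assigned by the percentages in the sample labels, without use of the array values. The early failure class held the 5 females with less than 10% eyed embryos (HI-1 and PM-1 to PM-4). The late loss class held the 5 females with at least 75% eyed embryos and less than 50% normal alevins at yolk-sac resorption (HI-3, HI-4, HI-5, PM-8 and PM-9). These 10 arrays were taken from 28. Each array was hybridised with radiolabelled cDNA of unfertilized eggs of 1 rainbow trout (Oncorhynchus mykiss) female of an autumn-spawning strain, so that the RNA was sampled before fertilization and the outcome was observed in other eggs of the same female. HI females had ovulated after hormonal induction and PM females after a photoperiod treatment that advanced ovulation, and natural ovulation (N) gave 4 further arrays. No female of the N group fell in either class. Eggs were fertilized with pooled semen, and 1 pool of eggs per female is a measurement of that female's clutch, not of single eggs.

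A fish embryo starts development on RNA and protein that the mother placed in the egg, before the genome of the embryo is transcribed. Maternal transcripts therefore cover the first cleavages, and embryonic transcripts take over progressively from the blastula stage. The eyed stage, when the pigmented eye is visible through the egg shell, is the usual checkpoint of embryo survival in salmonid hatcheries. Yolk-sac resorption marks the passage from yolk nutrition to feeding. A failure before the first of these stages and a loss between them are thus separate outcomes, and the comparison asks whether the egg transcripts that go with them differ.

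The classes were unevenly divided between the ovulation treatments, with 1 HI and 4 PM females in the early failure class and 3 HI and 2 PM females in the late loss class. The labels place all HI samples in a year other than that of the PM and N samples, and an effect of hormonal induction cannot be told apart from one of the year. The differences of clones were therefore fitted with the ovulation group as a term unless stated otherwise, and those of the clones described at length are also given by group. Counts of clones whose classes do not overlap take no account of the group. PM-4 carries the same female number in the labels as N replicate 1. An exchange of these samples was not tested, and results are given without PM-4 where they rest on it.

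In the early failure class eyed embryos amounted to 3% for HI-1, 0% for PM-1, 6% for PM-2, 6% for PM-3 and 8% for PM-4. In the late loss class they amounted to 89% for HI-3, 88% for HI-4, 77% for HI-5, 98% for PM-8 and 80% for PM-9. The nearest females outside the limits had 39% (PM-5) and 62% eyed embryos (PM-7). Normal alevins ranged from 0 to 5% in the early failure class and from 28.5% (HI-3) to 43.9% (PM-9) in the late loss class, and the lowest value among the females with good eggs was 71.5% (PM-10). These values chose the classes and were not tested. The late loss class was not uniform in the kind of loss. Malformed alevins amounted to 55.6% for HI-3 and 40.9% for HI-4, but to 3.2% for HI-5, 3.5% for PM-8 and 14.3% for PM-9. In the early failure class they amounted to 0% for HI-1, 50% for PM-2, 7.7% for PM-3 and 25% for PM-4, with no value for PM-1. These cannot be percentages of all eggs, as PM-2 had 50% malformed alevins but 6% eyed embryos. They therefore have another base than the distances given next and cannot be subtracted from them. Those distances still include malformed alevins, because the paper derived normal alevins from both survival and malformation. How much of each distance is malformation was not calculated. The distance between eyed embryos and normal alevins was 60.5, 52.4 and 37.2 percentage points for the 3 HI females and 57.7 and 36.1 points for the 2 PM females. For 1 PM female outside both classes the same distance was -3.9 points, so these percentages are not strictly nested counts.

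**Figure D1:**
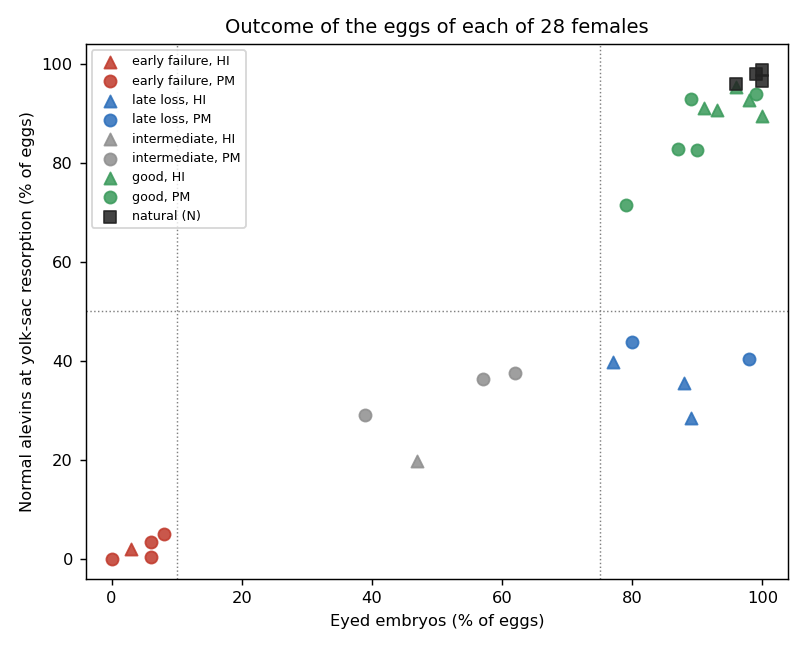
Percentage of eyed embryos (x axis) and of normal alevins at yolk-sac resorption (y axis) for the eggs of each of the 28 females, coloured by outcome class with a marker for each ovulation group, and with dotted lines at the limits of 10, 75 and 50%. The 5 early failure females lie at 0 to 8% eyed embryos, and the 5 late loss females lie at 77 to 98% eyed embryos with 28.5 to 43.9% normal alevins.

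Signals are given on the log2 scale relative to the median of each array, which is 0. Per array, 8146 to 8594 of the 9023 clones gave a signal above 0, and 8189 clones with at least 4 values in each class were tested. The arrays of the 2 classes were about equally alike. Pearson's r across clones was 0.953 on average for the 10 pairs within the early failure class, 0.948 for the 10 pairs within the late loss class and 0.953 for the 25 pairs between the classes. The mean r within classes minus that between classes was -0.0022 (two-sided exact permutation test over the 60 labellings that keep the ovulation groups, p = 0.4). Arrays of the same ovulation group were not all closer, with a mean r of 0.961 over the 15 PM pairs, 0.950 over the 6 HI pairs and 0.947 over the 24 pairs of an HI with a PM array. HI-1, the only HI array of the early failure class, was on average the least alike to the others. Its mean r with the other 9 arrays was 0.940, while the other 4 early failure arrays had 0.955 to 0.957 and the late loss arrays 0.948 to 0.953. HI-1 correlated with the 4 early failure PM arrays at 0.936 on average and with the 3 late loss HI arrays at 0.949. These 3 HI arrays correlated with each other at 0.951 on average, so HI-1 did not stand apart within its own ovulation group.

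**Figure D2:**
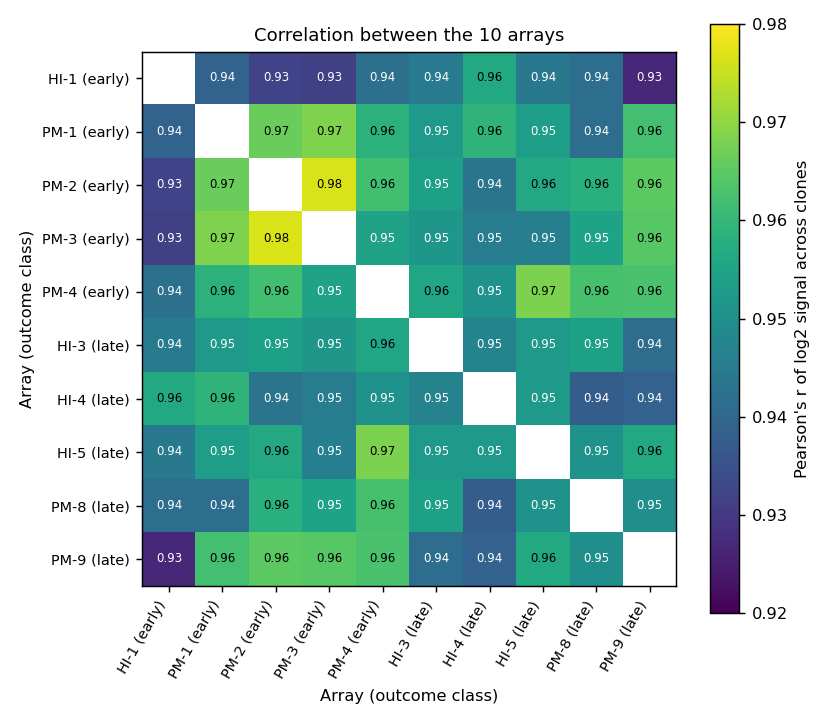
Pearson's r of log2 signal across clones for each pair of the 10 arrays (both axes: arrays, with the outcome class in parentheses; colour: r). Values run from 0.927 to 0.977, the 3 highest are those of PM-2 with PM-3, PM-1 with PM-3 and HI-5 with PM-4, and the row of HI-1 is the lowest on average.

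The interquartile range of log2 signal, a measure of how widely the signals of an array are spread, was 1.46, 1.62, 1.68, 1.77 and 1.46 in HI-1 and PM-1 to PM-4. In the late loss class it was 1.51, 1.57 and 1.43 in HI-3, HI-4 and HI-5 and 1.52 and 1.58 in PM-8 and PM-9. The means were 1.60 ± 0.14 (SD, n = 5) and 1.52 ± 0.06 (n = 5), the classes overlapped, and the difference of 0.08, without the group term, was within the spread between females (two-sided exact permutation test over all labellings of the 10 arrays, p = 0.302, 0.54 after adjustment over 4 array measures). With the ovulation group in the fit the difference was 0.04 (exact permutation with labellings kept within the groups, p = 0.617, smallest possible 0.0167).

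No transcript was called as different between eggs of the early failure class and eggs of the late loss class. Of 8189 clones, 0 (percent called 0) passed an adjusted p under 0.05 in limma, and the lowest adjusted p was 0.999. At an unadjusted p under 0.05 there were 223 clones (2.72%), 157 higher in the early failure class (1.92%) and 66 lower (0.806%), where a uniform distribution of p would give 409. A modified statistic after SAM with 100 permutations called 0 clones as well. In 27 clones (0.33%) the 5 early failure arrays did not overlap with the 5 late loss arrays, 15 being higher and 12 lower in the early failure class. The arrays left room for moderate differences. The median standard error of a clone was 0.15 on the log2 scale and the median half-width of its 95% interval 0.33. For 8093 clones (98.8%) the interval lay within -1 to 1, that is within a 2-fold difference in signal in either direction, and for 5819 clones (71.1%) it lay within -0.5 to 0.5. A fitted difference of more than 1 was found for 7 clones. Good eggs of HI and PM females gave a reference in a fit of all 28 arrays. Against them 0 of 8189 clones were called for late loss eggs, with 181 (2.21%) at an unadjusted p under 0.05, and 0 for early failure eggs, with 355 (4.34%).

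Names were given by the study to the clones of 2 lists, one of transcripts that differed between ovulation groups and one of transcripts related to egg quality. Since both were chosen on these samples, their directions are no independent evidence. Of the 53 clones described here 22 were higher and 31 lower in the early failure class, with a median difference of -0.01 on the log2 scale against 0.0031 for all clones tested. None passed adjustment, none had classes without overlap, and 4 had an unadjusted p under 0.05. Over all clones tested the classes did not overlap in 0.33%, and 2.72% had an unadjusted p under 0.05. Of the 53, 42 took the other sign under at least 1 alternative, in 150 of 1215 values. The alternatives include a block for the replicate number, which ranks females by egg quality. Of 30 clones of the egg quality list, 9 were higher and 21 lower in the early failure class (median -0.04), 1 of them with an unadjusted p under 0.05. Of 23 clones of the ovulation list, 13 were above and 10 below the late loss class (median 0.05), 3 of them with an unadjusted p under 0.05. The same egg quality list against good eggs of HI and PM females had 28 of 30 clones lower in the early failure class (median -0.19) and 28 of 30 lower in the late loss class (median -0.15), against 3755 and 4030 of 8189 over all clones. At an unadjusted p under 0.05 were 8 (26.7%) and 4 (13.3%) of the list, against 4.34% and 2.21% of all clones. These 2 comparisons share the good eggs and the arrays on which the list was chosen.

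**Figure D3:**
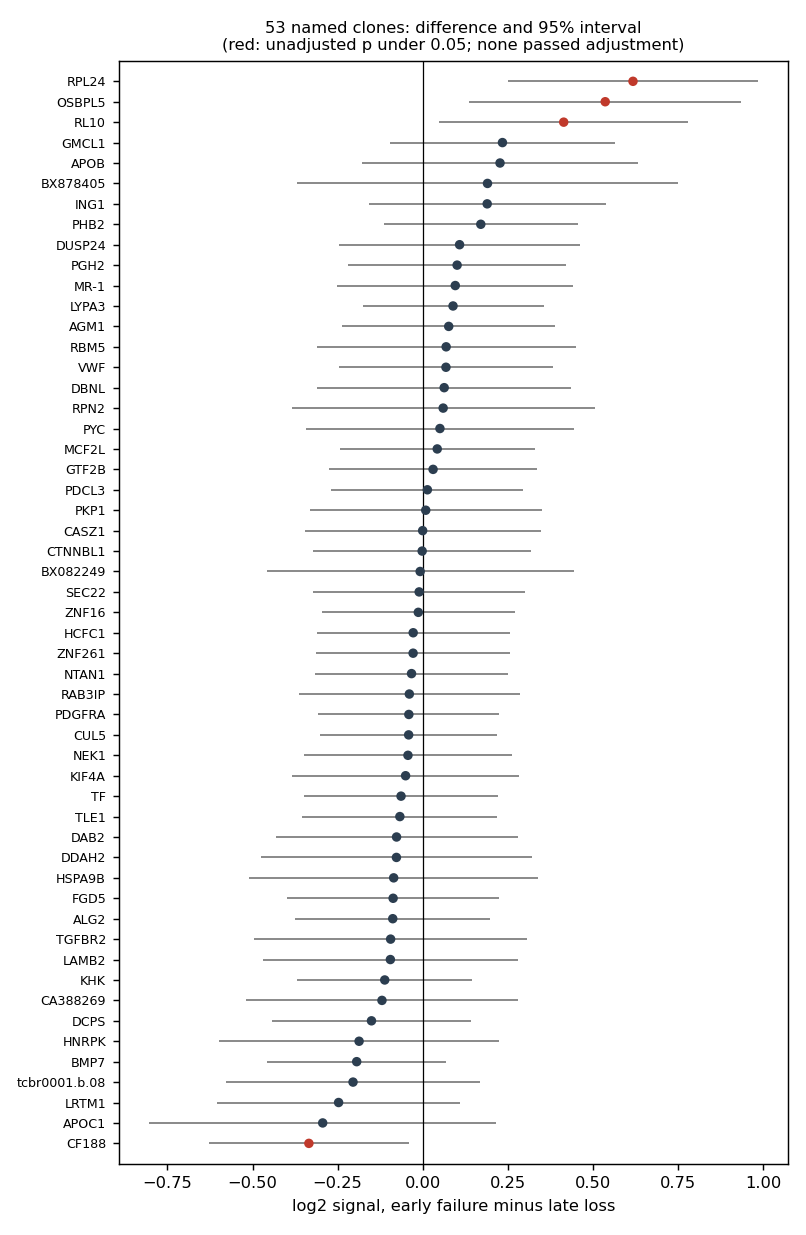
Difference in log2 signal, early failure minus late loss, with the ovulation group in the fit (x axis) for the 53 named clones (y axis). Points are differences, lines are 95% intervals, and red points mark the 4 clones with an unadjusted p under 0.05. Apart from those 4 the intervals include 0, and RPL24, OSBPL5 and RL10 lie to the right while CF188 lies to the left.

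The 2 ribosomal protein clones, both of the large subunit of the ribosome that translates maternal mRNA, had the same sign. The log2 signal of RPL24 was 0.80 in HI-1 and 0.12, -0.16, 0.16 and -0.50 in PM-1 to PM-4. In the late loss class it was 0.70, 0.60 and 0.18 in HI-3, HI-4 and HI-5 and -0.91 and -0.85 in PM-8 and PM-9. Within PM eggs all 4 early failure arrays were above both late loss arrays, whereas over the 10 arrays the classes overlapped, with the 4 HI arrays above all 6 PM arrays. The difference was 0.62 on the log2 scale (1.53-fold, standard error 0.17, unadjusted p = 0.0027, adjusted p = 0.999 from limma), with 0.79 within PM and 0.31 within HI. RL10 had a log2 signal of 1.70 in HI-1 and 0.64, 0.76, 0.59 and -0.09 in PM-1 to PM-4, against 1.31, 1.31 and 0.97 in HI-3 to HI-5 and 0.18 and 0.05 in PM-8 and PM-9. HI-1 was the highest of the HI arrays, and PM-4 lay below both late loss PM arrays. The difference was 0.41 (1.33-fold, standard error 0.17, unadjusted p = 0.0292, adjusted p = 0.999 from limma), 0.36 within PM and 0.50 within HI. These values rest on the group term, without which the difference was 0.14 for RPL24 and -0.04 for RL10. With the replicate number as a block over all 28 arrays RPL24 was at -0.30. That number ranks females by egg quality, so the block takes out part of the outcome compared. Without PM-4, whose female number is shared, it was 0.53 for RL10 and 0.69 for RPL24 (adjusted p = 0.44 for both in limma, the lowest over their alternatives). The log2 signal in natural eggs was -0.30 ± 0.60 (SD, n = 4) for RPL24 and 0.29 ± 0.13 (n = 4) for RL10.

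Among 5 clones of lipid transport and lipid metabolism, 4 were higher and 1 lower in the early failure class, and 1 had an unadjusted p under 0.05. OSBPL5, of a family of proteins that bind oxysterols and move lipids between membranes, had a log2 signal of 0.34 in HI-1 and 0.24, -0.39, -0.13 and -0.24 in PM-1 to PM-4. The late loss arrays had 0.67, 0.04 and 0.15 in HI-3 to HI-5 and -0.91 and -0.96 in PM-8 and PM-9. As for RPL24, PM-8 and PM-9 were the 2 lowest of the 10 arrays, and the HI arrays overlapped. The difference was 0.54 (1.45-fold, standard error 0.19, unadjusted p = 0.012, adjusted p = 0.999 from limma), and it amounted to 0.80 within PM and 0.06 within HI. Without the group term it was 0.17. The value within PM was above that within HI by 0.75, which did not pass adjustment and has HI-1 as its only early failure HI array. Good eggs had an OSBPL5 signal of 0.10 ± 0.32 (SD, n = 5) in the HI group and -0.50 ± 0.52 (n = 5) in the PM group. In the latter it ran from -1.19 in PM-14 to -0.04 in PM-11, and natural eggs had -0.47 ± 0.45 (n = 4). A signal as low as in PM-8 and PM-9 was thus not confined to late loss. APOC1 and APOB, apolipoproteins that carry lipid in plasma lipoproteins, had differences of -0.29 and 0.23 on the log2 scale. For APOB the difference was 0.70 within HI and -0.04 within PM, so that it rested on HI-1 (0.66, the other 9 arrays from -0.79 to 0.12), and without HI-1 it was -0.04. APOC1 was highest in HI-3 (0.38) and between -1.48 and -0.47 in the other 9 arrays, and its difference was -0.12 without HI-1 and -0.17 without HI-3. PGH2, a prostaglandin synthase, had a difference of 0.10.

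Among 6 clones of cytoskeleton and cell shape, 3 were higher and 3 lower, from -0.10 to 0.06 on the log2 scale, and none had an unadjusted p under 0.05. CF188, which was put in no role group, was the clone with the lowest difference among those named. Its log2 signal was -1.65 in HI-1 and -1.65, -1.60, -1.83 and -1.32 in PM-1 to PM-4, against -1.26, -1.23 and -1.51 in HI-3 to HI-5 and -1.34 and -1.17 in PM-8 and PM-9. PM-4 lay among the late loss arrays and HI-5 was the lowest of these. The difference was -0.33 (0.793-fold, standard error 0.14, unadjusted p = 0.0282, adjusted p = 0.999 from limma), -0.34 within PM and -0.32 within HI. Good eggs had -1.15 ± 0.14 (SD, n = 5) in the HI group and -1.27 ± 0.12 (n = 5) in the PM group. The late loss mean of -1.30 was nearer to these values than the early failure mean of -1.61. CF188 belongs to the egg quality list chosen on these samples.

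**Figure D4:**
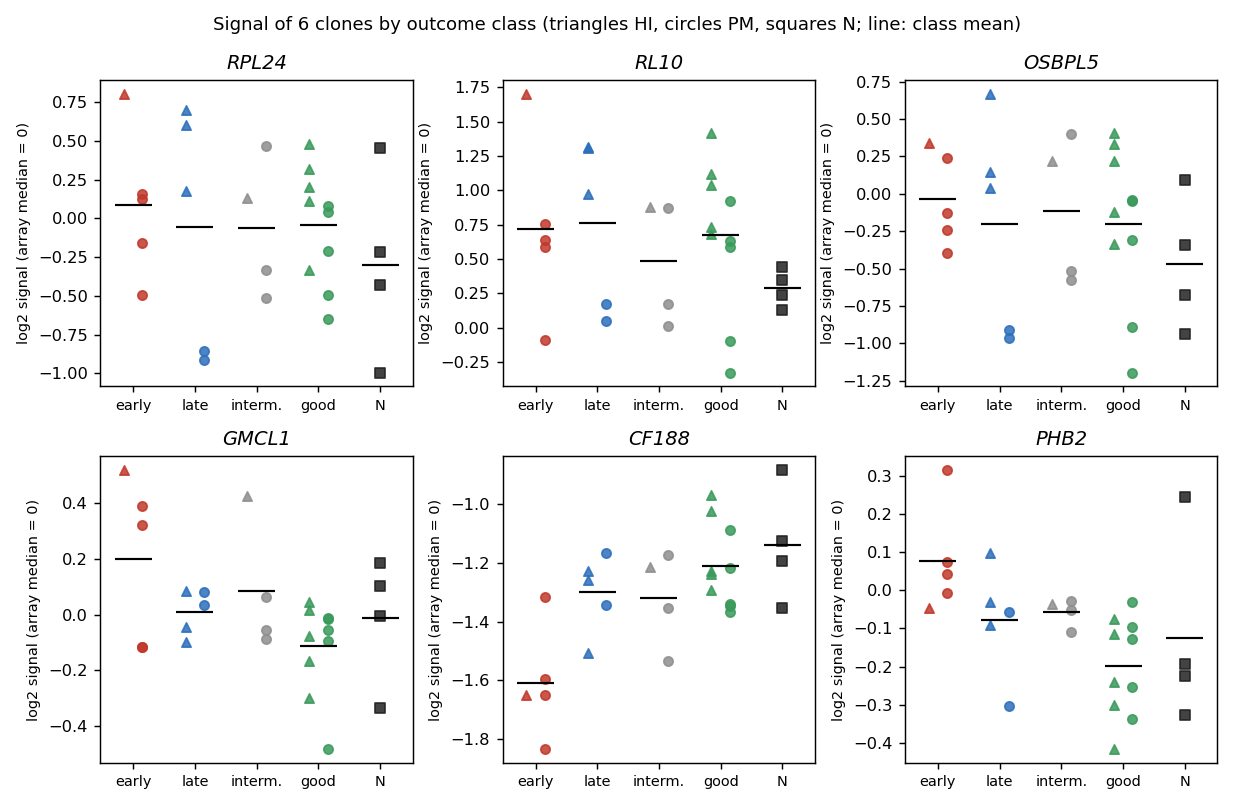
Log2 signal (y axis, array median at 0, a scale of its own in each panel) of 6 clones in the eggs of the 28 females by outcome class (x axis); each point is 1 female, triangles are HI, circles PM and squares N, and the line is the class mean. In RPL24 and OSBPL5 the 2 late loss PM females are below the 4 early failure PM females, and in CF188 the early failure females other than PM-4 are below the late loss females.

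PHB2 encodes prohibitin 2, a scaffold protein of the inner mitochondrial membrane that also has a role as a repressor of transcription in the nucleus. The study chose it for its relation with egg quality. By real-time PCR of all its array samples, the study also reported a negative correlation of PHB2 with normal alevins. The comparison here is another one, of array signal between classes that both gave few normal alevins. The log2 signal was -0.05 in HI-1 and 0.07, 0.04, 0.32 and -0.01 in PM-1 to PM-4. In the late loss class it was -0.09, -0.03 and 0.10 in HI-3 to HI-5 and -0.06 and -0.30 in PM-8 and PM-9. PM-3 was the highest and PM-9 the lowest, and the other 8 arrays lay within -0.09 to 0.10. The means were 0.08 ± 0.14 (SD, n = 5) and -0.08 ± 0.15 (n = 5). The difference of 0.15, without the group term, was within the spread between females (two-sided exact permutation test over all labellings of the 10 arrays, p = 0.135, 0.54 after adjustment over the 4 measures tested in this way). With the ovulation group in the fit it was 0.17 (95% interval -0.11 to 0.46, 1.13-fold, adjusted p = 0.999 from limma; exact permutation within ovulation groups, p = 0.2). It was 0.29 within PM and -0.04 within HI, and it was 0.07 without PM-9 and 0.12 without PM-3. Good eggs had -0.23 ± 0.14 (SD, n = 5) in the HI group and -0.17 ± 0.12 (n = 5) in the PM group. The 3 clones of mitochondrial proteins, PHB2 among them, ranged from -0.09 to 0.17.

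The 8 clones of transcription regulators lay between -0.07 and 0.23, 3 being higher and 5 lower in the early failure class. The highest was GMCL1, a nuclear envelope protein required in germ cells of Drosophila and linked to spermatogenesis in the mouse, with a difference of 0.23 on the log2 scale, 0.06 within PM (and without HI-1) and 0.54 within HI. HI-1 (0.52), PM-4 (0.39) and PM-2 (0.32) were above all late loss arrays, which had -0.10 to 0.08, while PM-1 and PM-3 (both -0.12) were below them. ING1, a reader of histone methylation, had a difference of 0.19, with 0.39 within PM and -0.16 within HI. The 3 clones of growth factor signalling were all lower in the early failure class, with differences of -0.19 for BMP7, a ligand of the transforming growth factor beta family that patterns the early embryo, -0.09 for TGFBR2, a receptor of that family, and -0.04 for PDGFRA, a receptor of platelet-derived growth factor. None of these had an unadjusted p under 0.05. BMP7 was lowest in HI-1 (-0.81) and highest in PM-9 (-0.17), and the other 8 arrays lay between -0.63 and -0.36.

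The other groups of named clones held no clone at an unadjusted p under 0.05. Of 4 clones of mRNA processing and decay, 1 was higher and 3 lower, among them HNRPK, an RNA-binding protein (-0.19, with no signal above 0 on HI-1, but -1.69 with that 0 kept under a pseudocount of 0.1 and -0.0023 without the group term), and DCPS, which degrades the cap of decayed mRNA (-0.15). The 4 clones of glycosylation and sugar metabolism were 2 higher and 2 lower, with AGM1, a phosphoglucomutase of amino sugar synthesis, at 0.08 and KHK, the kinase of fructose, at -0.11. The plasma proteins VWF, which binds platelets, and TF, the iron carrier transferrin, had differences of 0.07 and -0.06, and APOB is given above. The 3 clones of vesicle traffic (-0.08 to -0.01) and the 2 of protein turnover (-0.04 and -0.03) were all lower in the early failure class by small amounts, and the 2 of kinases and phosphatases had -0.04 and 0.11. LRTM1 and MR-1, which were put in no role group, had -0.25 and 0.10. Without PM-8 LRTM1 was at -0.05, and without HI-3 MR-1 was at 0.02. Of the 21 named clones given with single values, 17 had a difference that moved by over 1.5 times when 1 array was left out. The clones of plasma proteins and apolipoproteins named here are APOB, APOC1, TF and VWF, and no named clone marks follicle cells, blood cells or the oocyte, so the content of the egg samples could not be checked on marker genes.

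Outside the study's lists the clones carry no gene name in the sources used here and are given by clone number, as examples of the 157 higher and 66 lower clones at an unadjusted p under 0.05. Clone 1RT160G11_A_D06 differed by similar amounts in both ovulation groups. Its log2 signal was 1.46 in HI-1 and 0.81, 0.86, 0.78 and 0.20 in PM-1 to PM-4, against 0.91, 0.78 and 0.39 in HI-3 to HI-5 and 0.04 and -0.22 in PM-8 and PM-9. In each ovulation group every early failure array was above every late loss array. The difference was 0.76 (standard error 0.17, unadjusted p = 0.00035, adjusted p = 0.999 from limma), 0.75 within PM and 0.77 within HI. Without the group term it was 0.44, and over its 23 alternatives it lay between 0.11 and 0.86. The clones of this paragraph were named for their low p in this fit, so agreement between the groups is in part built in. Clone 1RT163G23_A_D12 was lower in all early failure arrays (-0.41 in HI-1 and -0.36, -0.36, -0.56 and -0.21 in PM-1 to PM-4) than in all late loss arrays (0.22, -0.03 and 0.28 in HI-3 to HI-5, 0.14 and 0.00 in PM-8 and PM-9). The difference was -0.49 (standard error 0.13, adjusted p = 0.999 from limma), -0.44 within PM and -0.57 within HI. Its mean in good eggs was -0.15 ± 0.04 (SD, n = 5) in the HI group and -0.27 ± 0.24 (n = 5) in the PM group, between the means of the 2 classes (-0.38 and 0.12). Clone tcal0001.g.09 had the lowest p of all (difference 0.99, unadjusted p = 0.000325, adjusted p = 0.999), with 1.73 in HI-1 and -0.93 to 0.34 in the other 9 arrays. Outside both classes it was also high in HI-11 (1.73, good eggs) and HI-2 (1.35, intermediate). Its difference was 0.57 within PM (and without HI-1) and 1.75 within HI, where HI-1 is the only early failure array. Clone tcbk0018.n.16 had a difference of -0.54, with -0.47 within PM and -0.64 within HI.

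Within PM females, 4 early failure arrays were set against 2 late loss arrays. No clone of 8189 was called (percent called 0), and 385 (4.7%) had an unadjusted p under 0.05 in limma. The count was 4 without PM-4, 1 without PM-8, 3 without PM-9 and 0 without each of PM-1, PM-2 and PM-3. Within HI females, the single early failure array was set against 3 late loss arrays, with the assumption that HI-1 varies as the other arrays do. Of 8179 clones, 8 were called (0.0978%), 7 higher (0.0856%) and 1 lower (0.0122%), and 426 (5.21%) had an unadjusted p under 0.05. Clone tcbk0035.l.16 had a log2 signal of 2.30 in HI-1 and -0.76, -0.25 and -0.25 in HI-3 to HI-5, a difference of 2.73 (adjusted p = 0.000171 from limma), and -0.69 to -0.32 in the 6 PM arrays. Clone tcbk0011.g.12 had 1.04 in HI-1 and -1.10, -0.81 and -0.65 in HI-3 to HI-5, a difference of 1.89 (adjusted p = 0.00545 from limma), with -0.99 to -0.58 in the PM arrays. Clone tcad0004.p.13, the 1 lower clone, had -0.20 in HI-1 and 1.28, 1.12 and 1.36 in HI-3 to HI-5 (difference -1.45, adjusted p = 0.0411 from limma), and it lost the call without each of the 3 late loss HI arrays. These calls describe HI-1 as 1 array of 1 female, and no second early failure HI female was analysed here. The HI counts were 3 without HI-3, 3 without HI-4 and 4 without HI-5.

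The differences within the 2 ovulation groups did not go together. Across 8179 clones, which are not independent replicates, the difference within PM and that within HI correlated at r = -0.16, and 41.5% of clones had the same sign in both, with no array shared between the 2 differences. The SD across clones was 0.22 within PM and 0.30 within HI. A difference between the 2 contrasts passed adjustment in 1 clone (0.0122%), tcbk0035.l.16, where it rests on HI-1, and 613 clones (7.49%) had an unadjusted p under 0.05 in limma.

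**Figure D5:**
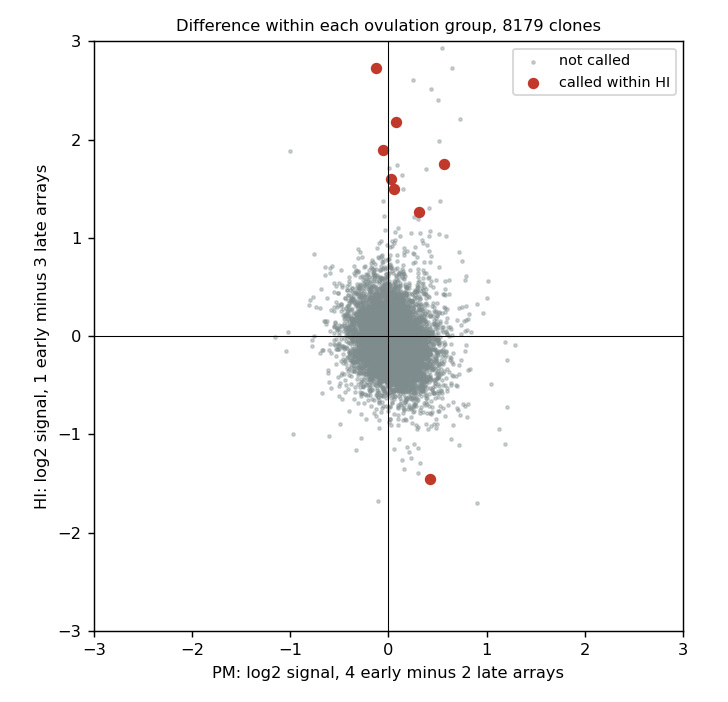
Difference in log2 signal, early failure minus late loss, within the PM group (x axis, 4 against 2 arrays) and within the HI group (y axis, 1 against 3 arrays) for 8179 clones; red points are the 8 clones called within HI. The red points lie far from 0 along the HI axis, up to 2.73, and between -0.13 and 0.57 along the PM axis.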

How the data were processed

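Values were processed by the authors from nylon arrays hybridised with radiolabelled cDNA. The authors scanned imaging plates, discarded spots whose vector oligonucleotide signal was too near background, corrected for spotted DNA and divided each value by the array median, and the deposited intensity values are on a linear scale. The sources used here do not give how duplicate spots were combined. Of 9216 rows, 193 whose identifier did not begin like a clone number were left out. Values of 0 (6.59% of clone values) were treated as missing, and log2 was taken without a pseudocount. Clones with at least 4 values in each class were tested with limma 3.58.1 in R 4.3.3, with class and ovulation group as terms and Benjamini-Hochberg adjustment over all 8189 clones at 0.05. Cell means of class by ovulation group gave the differences within PM and HI and their difference. Single measures were tested by exact permutation in Python 3.11.15, and figures were drawn with matplotlib 3.10.9. The number of arrays limits the precision, and p-values measure the spread between females.

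Groups and percentages were taken from the labels. The classes and lists were chosen with earlier results of these data known. Named were all clones of the study's 2 lists (53 described here, 21 of them with single values, chosen after their values were seen). Of the other clones, up to 2 in each direction were named by the lowest p of early failure against late loss. Up to 2 in each direction were taken from the clones called within HI. Any clone called for the difference between the PM and HI contrasts was added. The last 2 choices rest on HI-1. Wider lists of pathways and cell types could not be used, because no table pairs the other clones with genes. A few clones of the lists are left out here. The alternatives tried were 2 scalings, filters on missing values, other terms and class limits, SAM, all 28 arrays, a block for the replicate number, and each array left out.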

Additional observations from a re-analysis of the deposited data

Results flagged for a closer look

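HI-1 lay far from the 4 other early failure arrays, all PM, in its mean correlation with the other 9 arrays (0.940 against 0.955 for the nearest). Within the HI group it did not, with a mean r of 0.949 with the late loss arrays, against 0.951 among these. HI-1 also lay far from the other early failure arrays in log2 signal for tcal0001.g.09 (1.73 against -0.10), tcbk0035.l.16 (2.30 against -0.32) and tcbk0011.g.12 (1.04 against -0.58). Of these, tcbk0035.l.16 and tcbk0011.g.12 are named because of the contrast within HI, which rests on HI-1. Clone tcal0001.g.09 was named for its low p in the fit of the 10 arrays, HI-1 included, and is also among the clones called within HI. Among the late loss arrays, HI-4 was far below the others for AGM1 (-1.87 against -1.44) and HI-3 for tcbk0035.l.16 (-0.76 against -0.38). These 6 cases came from 62 groups of 5 or 4 values, where about 1 in 20 is found by chance (3.1 of 62). Since clones chosen with the HI-1 values are among the groups, the count found cannot be compared with that of chance.

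For tcbk0035.l.16 the difference between early failure and late loss arrays within PM minus that within HI was -2.86 on the log2 scale (adjusted p = 0.00155 from limma). The early HI side of it is HI-1 alone, so the value restates the high signal of this array and does not show that PM and HI females differ.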

How the results depend on the processing

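The count of 0 clones for early failure against late loss was found under each of its 24 alternatives, which had 174 to 514 clones at an unadjusted p under 0.05, other normalizations, filters, class limits and each left-out array included. The alternatives here and below also include the block for the replicate number, which ranks females by egg quality. Of the 53 named clones of the study, 42 took the other direction under at least 1 alternative, in 150 of 1215 values, and 0 of these values were called. The 28 clones given with single values, 21 of them chosen after their values were seen, kept their direction, without a call, in 627 of 643 values under the alternatives, and 0 were called. HNRPK has no value where signals above 0 on all 10 arrays were required. Without the ovulation group term RL10 was -0.044 and ING1 -0.13. With the early failure class widened to females with less than 50% eyed embryos TGFBR2 was 0.039 and PDGFRA 0.0051. Leaving out single arrays gave a range of -0.18 to 0.012 for TGFBR2, -0.084 to 0.0087 for PDGFRA, -0.039 to 0.38 for APOB, -0.17 to 0.032 for TF, -0.035 to 0.29 for VWF, -0.13 to 1.25 for tcbk0035.l.16, -0.053 to 0.93 for tcbk0011.g.12 and -0.54 to 0.42 for tcad0004.p.13. The cause was not tested.

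The replicate numbers rank females by egg quality and do not pair them. Of 10 numbers shared by HI and PM, 3 had deviations from the group mean that correlated above 0.1 (range -0.24 to 0.19), and 1 of 20 arrays correlated best with its own number. With the number as a block over all 28 arrays 0 clones were called, and the block turned the direction of PHB2 (-0.065), RPL24 (-0.30), OSBPL5 (-0.33) and tcbk0018.n.16 (0.20). Since the number follows the outcome, the block takes out part of the difference compared. Its values therefore cannot show whether a direction or the count of 0 is stable.

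Within PM, where 0 clones were called, leaving out single arrays gave 0 to 4. Within HI, where 8 were called, alternatives chosen after seeing the data gave 14 with quantile normalization, 14 with the interquartile range as a covariate, 30 with only the HI arrays and 3 to 4 without single late loss arrays. The difference between both contrasts, with 1 call, had 4 calls with quantile normalization, 4 with cell means over all 28 arrays and 1 to 6 without single arrays. The difference in interquartile range was 0.03 to 0.11 without single arrays.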

Other observations

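Of the 8 clones called within HI, 2 share the plate and the row letter of their clone number, tcbk0011.g.12 among them. Whether their position on the membrane goes with the high signal on HI-1 was not tested.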
